A study of Homo sapiens with 4 samples.

Results

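The IFIT and IFITM families are 2 groups of interferon-induced genes, and 7 of their members were followed here, IFIT1, IFIT2, IFIT3, IFIT5, IFITM1, IFITM2 and IFITM3. They were taken by gene symbol from count files that list 50868 genes, and all 7 were found and passed the filter on low counts, as did 15222 genes in all. The RNA came from A549, a human lung adenocarcinoma cell line, in 4 libraries: 2 from control cells with an empty vector and 2 from cells that overexpressed USP12, a deubiquitinase, from a lentiviral vector. No stimulus is named in the labels for any of the libraries. The labels number the libraries 1 and 2 within each group and do not say whether they came from separate cultures, so p-values measure the spread between these libraries, which may be technical. USP12 was at 15.2 and 34.4 CPM (TMM-scaled counts, put on 1 library size by edgeR) in control replicates 1 and 2, and at 1745 and 2235 CPM in USP12 replicates 1 and 2, so the targeted gene followed the labels. The libraries held between 14280081 and 16305356 counts, at which 3 counts, taken as the floor of detection, came to between 0.166 and 0.227 CPM.

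Interferons bind receptors at the cell surface, and receptor-associated JAK kinases then activate the transcription factor complex ISGF3, which contains STAT2 and IRF9. ISGF3 binds interferon-stimulated response elements (ISREs) near the start of its target genes. IFIT proteins are cytosolic and built of tetratricopeptide repeats, and they bind foreign RNA or the translation machinery. IFITM proteins are small membrane proteins that restrict the fusion of enveloped viruses with the membranes of the cell. Epithelial cells of the airway express both families at a basal level that interferon raises.

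The IFIT genes lie in a cluster on chromosome 10 and the IFITM genes in a cluster on chromosome 11 (GRCh38, GENCODE release 44, all protein-coding). On the plus strand of chromosome 10 they were, in order, IFIT2 (chr10:89283694-89309271), IFIT3 (chr10:89327307-89377473), IFIT1 (chr10:89392546-89406487) and IFIT5 (chr10:89414568-89421605). On chromosome 11, IFITM2 (chr11:303655-309397) and IFITM1 (chr11:310041-315272) are on the plus strand and IFITM3 (chr11:319676-329475) is on the minus strand. The promoter windows below, of 250 bases before and 50 bases after the annotated start, are from RefSeq (GRCh38.p14), 5′ to 3′ on the strand of the gene. They are shown for the 3 members whose control and USP12 libraries did not overlap (IFIT1, IFITM1 and IFITM3) and for IFIT5, which had the most ISRE matches, and the capitals mark the ISRE core GAAANNGAAA or the same letters read on the other strand.
IFIT1, chr10:89392373-89392672, plus strand: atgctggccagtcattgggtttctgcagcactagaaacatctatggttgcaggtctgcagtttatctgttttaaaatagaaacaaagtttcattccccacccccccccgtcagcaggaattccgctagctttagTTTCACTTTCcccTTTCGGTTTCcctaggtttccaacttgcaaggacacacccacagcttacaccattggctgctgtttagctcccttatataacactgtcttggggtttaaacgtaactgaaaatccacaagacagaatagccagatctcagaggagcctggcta
IFIT5, chr10:89414318-89414617, plus strand: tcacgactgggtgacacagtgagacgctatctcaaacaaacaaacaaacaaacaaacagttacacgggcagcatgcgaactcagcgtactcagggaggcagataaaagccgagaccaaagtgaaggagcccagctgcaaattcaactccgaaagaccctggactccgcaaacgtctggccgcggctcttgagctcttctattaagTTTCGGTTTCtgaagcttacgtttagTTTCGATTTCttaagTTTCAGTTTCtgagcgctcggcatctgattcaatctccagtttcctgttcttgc
IFITM1, chr11:313790-314089, plus strand: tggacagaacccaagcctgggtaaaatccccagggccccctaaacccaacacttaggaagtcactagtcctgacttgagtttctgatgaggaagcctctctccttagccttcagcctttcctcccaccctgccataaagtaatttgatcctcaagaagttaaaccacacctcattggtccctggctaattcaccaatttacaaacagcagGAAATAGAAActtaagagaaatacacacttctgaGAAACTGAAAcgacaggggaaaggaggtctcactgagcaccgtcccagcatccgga
IFITM3, chr11:320811-321110, minus strand: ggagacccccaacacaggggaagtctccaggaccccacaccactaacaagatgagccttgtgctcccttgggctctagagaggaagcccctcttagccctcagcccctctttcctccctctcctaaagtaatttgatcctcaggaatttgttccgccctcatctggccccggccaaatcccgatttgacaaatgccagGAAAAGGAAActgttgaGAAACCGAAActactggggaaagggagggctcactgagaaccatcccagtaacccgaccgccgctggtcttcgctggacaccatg

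Every member in the RefSeq table, 5 of 5, had the ISRE core in its promoter window, and each window held at least 2 matches. IFIT2 and IFITM2 were not in the table. Among all 35116 promoter windows of 300 bases, 3.57% held at least 1 match on either strand and 0.259% held 2 or more. Counted from 0 at the first base after the 250, the matches in IFIT1 were at positions -116 to -107 and -103 to -94, and in IFIT5 at -45 to -36, -19 to -10 and -4 to 5. In IFITM1 they were at -40 to -31 and -6 to 3, and in IFITM3 at -52 to -43 and -35 to -26. IFIT3 has 2 annotated starts in the table, and the windows of both held 2 matches. In the IFIT genes the matches read on the opposite strand from the gene, and in the IFITM genes on the strand of the gene. The gamma-activated site TTCNNNGAA, an element of the interferon-gamma response, occurred only in IFITM1, at -12 to -4, where it overlapped the ISRE match nearest the start, against 7.66% of all promoters. The kappaB core GGGNNNNNCC, a motif of NF-kappaB, was present in IFIT1 and IFITM3, against 58.7% of all promoters. These matches are letters in a window and no binding was measured.

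**Figure D1:**
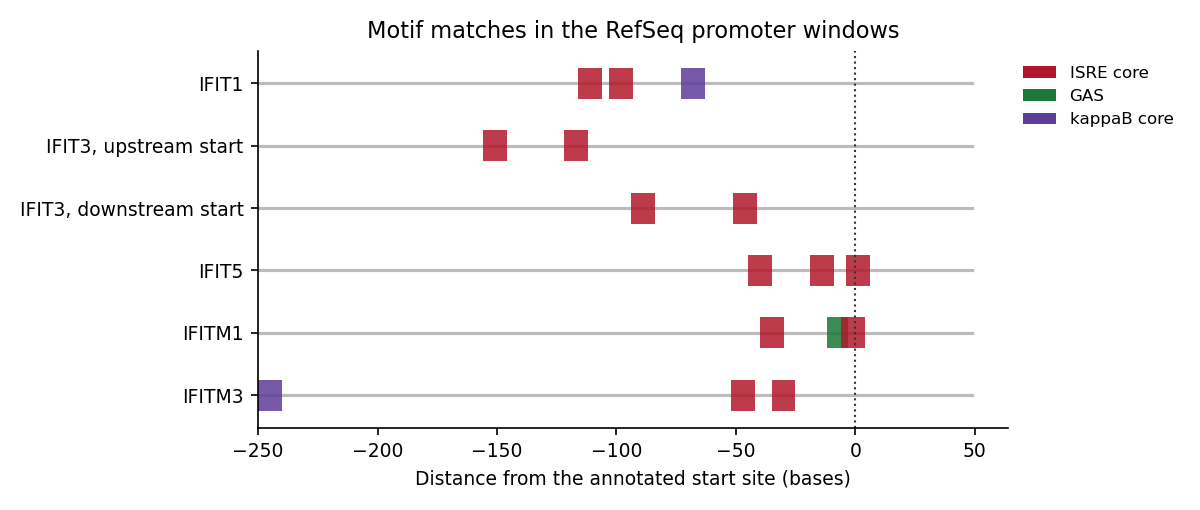
Matches to the ISRE core, the gamma-activated site (GAS) and the kappaB core in the promoter windows of the 5 members in the RefSeq table, 2 windows for IFIT3, plotted by distance from the annotated start in bases. Every window holds 2 or 3 ISRE matches, and those of IFIT1 and IFIT3 lie farther upstream than most of those of IFIT5, IFITM1 and IFITM3.

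The comparison of USP12 with control libraries asks which transcripts differ when USP12 is overexpressed. All 7 members had a negative log2 fold change, and their median was -2.81, against -0.06 over all genes tested. The level in both USP12 libraries was below that in both control libraries for IFIT1, IFITM1 and IFITM3, 3 of 7, where this held for 17.0% of all genes tested. By the criterion of a log2 fold change at least 1 unit below 0 at an unadjusted p of up to 0.05, 4 of 7 members were lower (IFIT1, IFIT2, IFITM1 and IFITM3), against 4.41% of all genes. No member had an adjusted p under 0.05 in edgeR's quasi-likelihood test with Benjamini-Hochberg adjustment, and neither did any of the 15222 genes, of which 1155 had an unadjusted p of 0.05 or less. The DESeq2 Wald test on the same genes gave an adjusted p under 0.05 for 273 lower genes (1.79%) and edgeR's exact test for 250 (1.64%), each with 3 of the 7 members. In RNA from a whole culture, fewer cells that express a gene and less RNA per cell cannot be told apart.

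IFIT1, which binds foreign RNA, was at 14.2 and 191 CPM in control replicates 1 and 2. In USP12 replicates 1 and 2 it was at 5.76 and 3.95 CPM. Its level was below that of either control library in both USP12 libraries, and the control libraries themselves lay far apart. The log2 fold change of IFIT1 was -4.40 ± 1.20 (approximate SE, n = 2 libraries a group; quasi-likelihood adjusted p = 0.356 by edgeR), and 81 of the genes tested had a lower one. IFIT2, which forms complexes with the other IFIT proteins and is linked to cell death, was at 2.42 and 34.2 CPM in the control libraries and at 2.38 and 2.84 CPM in the USP12 libraries. Control replicate 2 alone was high, and control replicate 1 lay between the USP12 libraries. The log2 fold change of IFIT2 was -2.81 ± 1.15 (SE), with a quasi-likelihood adjusted p of 0.656 by edgeR.

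IFIT3, which binds IFIT1 and stabilises it, was at 1.82 and 59.9 CPM in the control libraries and at 5.40 and 3.39 CPM in the USP12 libraries. Control replicate 1 was the lowest of the 4 libraries and control replicate 2 the highest. Its 24 counts in control replicate 1 (exact Poisson 95% interval 15.4 to 35.7, counting error only) lay below the 75 (59.0 to 94.0) and 49 (36.3 to 64.8) of the USP12 libraries. The log2 fold change of IFIT3 was -2.81 ± 1.38 (SE), with a quasi-likelihood adjusted p of 0.771 by edgeR. IFIT5, which binds RNA with a triphosphate end, was at 7.87 and 43.8 CPM in the control libraries and at 9.14 and 9.90 CPM in the USP12 libraries. It too was high in control replicate 2 alone, and its log2 fold change was the smallest of the IFIT family, -1.44 ± 0.81 (SE), with a quasi-likelihood adjusted p of 0.829 by edgeR.

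IFITM3, which restricts viruses that enter through endosomes, was at 227 and 137 CPM in control replicates 1 and 2 and at 23.3 and 18.7 CPM in USP12 replicates 1 and 2. The control libraries were close to each other, and both stood well above the USP12 pair. Its log2 fold change was -3.11 ± 0.44 (SE), or 8.66-fold lower. The quasi-likelihood p by edgeR was the lowest of the 7 members, 0.000365 unadjusted and 0.163 adjusted. IFITM1, found mostly at the plasma membrane, was at 29.1 and 142 CPM in the control libraries and at 8.64 and 8.24 CPM in the USP12 libraries. There was no overlap between the groups, although the control libraries differed from each other by more than control replicate 1 did from the USP12 libraries. The log2 fold change of IFITM1 was -3.34 ± 0.79 (SE), or 10.1-fold lower, with a quasi-likelihood adjusted p of 0.303 by edgeR.

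IFITM2, a close paralog of IFITM3 that also acts in endosomes, did not follow it. It was at 343 and 93.0 CPM in the control libraries and at 142 and 102 CPM in the USP12 libraries. Control replicate 1 was the highest and control replicate 2 the lowest, so the groups overlapped, and the log2 fold change was -0.84 ± 0.63 (SE), with a quasi-likelihood adjusted p of 0.898 by edgeR. Whether the fold changes of IFITM2 and IFITM3 differ was not tested.

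**Figure D2:**
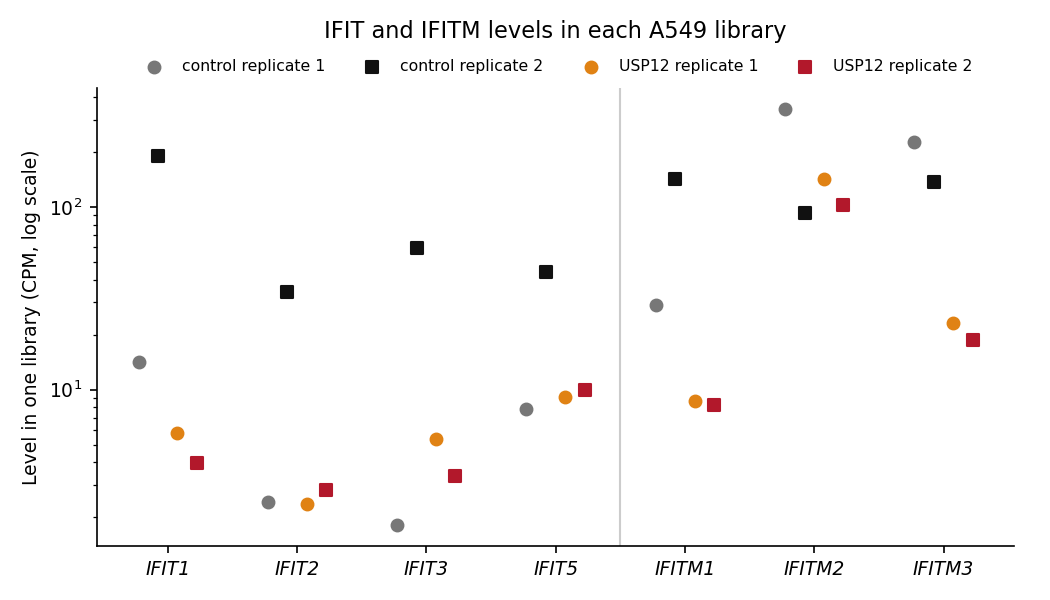
Level of each member in each of the 4 A549 libraries, in CPM on a log axis, 1 point per library. Control replicate 2 (black squares) stands above the other 3 libraries for all 4 IFIT genes and IFITM1, while both control libraries stand above both USP12 libraries for IFITM3 and control replicate 2 is the lowest for IFITM2.

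Most of these differences depended on which control library was used. Set against control replicate 1 alone, the log2 fold changes of IFIT2, IFIT3 and IFIT5 were 0.14, 1.30 and 0.30, and against control replicate 2 alone they were -3.71, -3.77 and -2.20. For IFIT1 they were -1.52 and -5.29, for IFITM1 -1.76 and -4.07, for IFITM2 -1.46 and 0.39, and for IFITM3 -3.40 and -2.70. The median of the 4 IFIT genes was 0.22 against control replicate 1 alone and -3.74 against control replicate 2 alone, and that of the 3 IFITM genes -1.76 and -2.70. IFIT1, IFITM1 and IFITM3 were thus lower against either control library, and the gap between these values was smallest for IFITM3. Without control replicate 2, 4 of 7 members (IFIT1 and the 3 IFITM genes) had a quasi-likelihood adjusted p under 0.05 by edgeR and a negative fold change, where 16.3% of all genes were, and without control replicate 1, 6 of 7 were (all but IFITM2), where 5.74% were. In these fits the lone control library is assumed to vary as the USP12 libraries do. Without either USP12 library, no member had an adjusted p under 0.05.

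**Figure D3:**
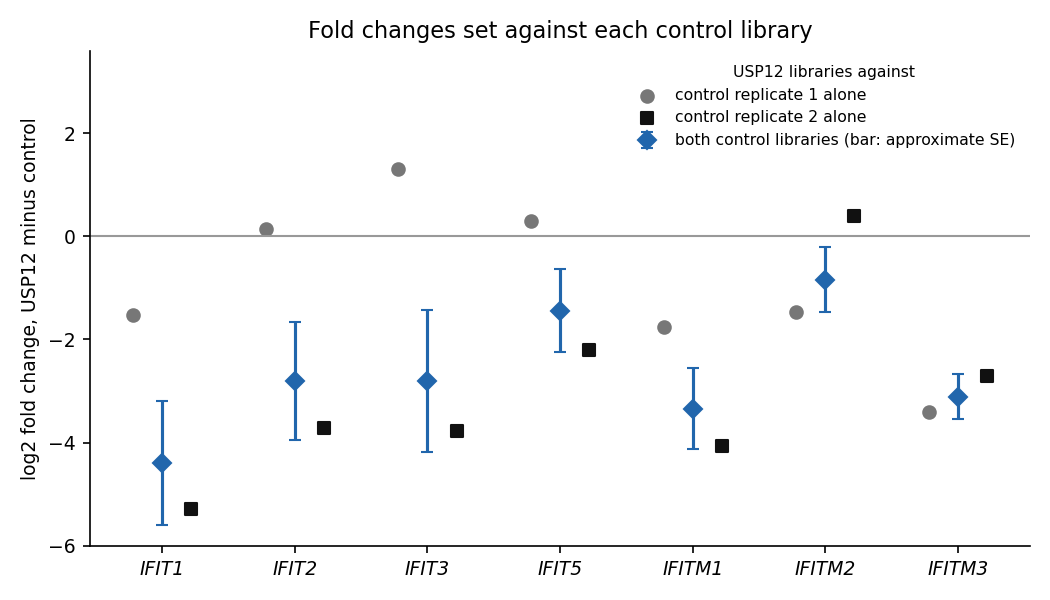
Log2 fold change of each member, USP12 minus control, against control replicate 1 alone (grey circles), control replicate 2 alone (black squares) and both control libraries (blue diamonds, with the approximate standard error as bars). The values against each control library lie on opposite sides of 0 for IFIT2, IFIT3, IFIT5 and IFITM2, and at -3.40 and -2.70 for IFITM3.

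The control libraries differed from each other over the whole table. The SD of the log2 ratio over all genes tested was 1.32 for the control pair and 0.62 for the USP12 pair. The log2 ratio of control replicate 1 to control replicate 2 was -4.94 for IFIT3, and 0.131% of the genes tested had a larger difference in either direction. It was -3.75 for IFIT2 and -3.73 for IFIT1, with 1.06% and 1.1% of genes beyond them, and -2.46 for IFIT5 and -2.28 for IFITM1, with 6.06% and 7.48% beyond. The ratio was 1.88 for IFITM2 and 0.73 for IFITM3, with 13.1% and 58.6% of genes beyond. Between the USP12 libraries no member differed by more than 0.65 (IFIT3). In the column headings, control replicate 1 has a different prefix from the other 3 libraries, so a comparison within 1 prefix is the one against control replicate 2 alone, and the prefix and that library cannot be told apart.

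The ratio of the control libraries also went with the GC content of the transcripts (Spearman correlation across 15094 genes 0.60, against 0.14 for the USP12 libraries, genes not being independent). The IFIT transcripts had between 37.6% and 44.4% GC and the IFITM transcripts between 55.4% and 58.1%. Genes within 2 percentage points of IFIT1 in GC content had a median log2 ratio of -0.83, with the middle 90% between -2.51 and 1.00, so the -3.73 of IFIT1 lay outside it, as did the ratios of IFIT2 and IFIT3. The ratio of IFIT5 lay just inside, at -2.46 against a lower end of -2.60. Genes with the GC content of IFITM1 had a median of 0.55 and a lower end of -1.28, and IFITM1 at -2.28 lay below that end. The ratios of IFITM2 and IFITM3 lay within the ranges for their GC content, whose medians were 0.66 and 0.77. With an offset for GC content in each library, a fit chosen after seeing the data, the log2 fold changes of the IFIT genes were -4.24 (IFIT1), -2.66 (IFIT2), -2.77 (IFIT3) and -1.23 (IFIT5), and those of the IFITM genes -3.41 (IFITM1), -0.53 (IFITM2) and -2.87 (IFITM3). In that fit IFITM3 had a quasi-likelihood adjusted p of 0.0458 by edgeR (8.34e-08 to 0.638 over its 12 alternative fits), where 0.092% of all genes were called lower.

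Summed over the family, the IFIT genes were at 26.3 and 329 CPM in the control libraries and at 22.7 and 20.1 CPM in the USP12 libraries, so only control replicate 2 stood apart. The IFITM genes summed to 598 and 372 CPM in the control libraries and to 174 and 128 CPM in the USP12 libraries, without overlap. Within the IFIT family, the share of IFIT1 lay apart between the groups. IFIT1 gave 54% (exact binomial 95% interval 48.6 to 59.3) and 58% (56.8 to 59.3) of the IFIT counts in the control libraries and 25.4% (20.7 to 30.6) and 19.7% (15.2 to 24.7) in the USP12 libraries. IFIT1 thus led the family in both control libraries despite the gap in their levels. IFIT5 led it in both USP12 libraries with 40.3% (34.9 to 46) and 49.3% (43.4 to 55.2). In control replicates 1 and 2 IFIT5 gave 29.9% and 13.3%, which lay farther apart than control replicate 1 and USP12 replicate 1. The shares of IFIT3 overlapped, at 6.9% and 18.2% in the control and 23.8% and 16.9% in the USP12 libraries.

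IFITM3 gave 37.9% (36.8 to 39) and 36.8% (35.7 to 38) of the IFITM counts in the control libraries and 13.4% (12.1 to 14.8) and 14.6% (13 to 16.2) in the USP12 libraries. There were 0.661 and 1.47 IFITM3 counts for each IFITM2 count in control replicates 1 and 2, and 0.164 and 0.184 in the corresponding USP12 replicates, a ratio taken within each library. IFITM1 gave 38.1% (37 to 39.3) in control replicate 2, and between 4.87% and 6.42% in the other 3 libraries. IFITM2 gave 57.3% (56.2 to 58.4) and 25% (24 to 26.1) in control replicates 1 and 2, against 81.6% (80 to 83.2) and 79% (77.1 to 80.9) in the USP12 pair, so its share differed more between the control libraries than between control replicate 1 and either USP12 library. The intervals cover counting error only, and with 2 libraries a group an exact permutation test of a single ratio cannot give a two-sided p below 0.333.

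**Figure D4:**
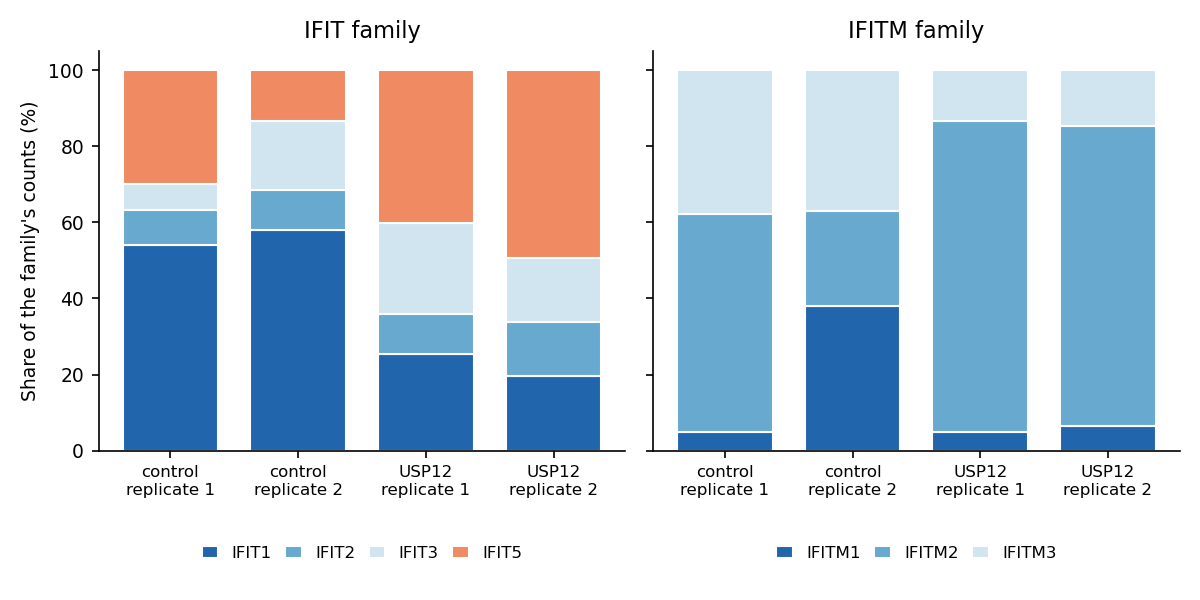
Share of each member in the summed counts of its family, in percent, 1 bar per library. IFIT1 takes 54% and 58% of the IFIT counts in the control libraries and IFIT5 the most in both USP12 libraries, and the share of IFITM3 lies between 36.8% and 37.9% in the control and between 13.4% and 14.6% in the USP12 libraries.

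The IFITM genes share sequence, and only uniquely mapped fragments were counted. The canonical transcripts of IFITM2 and IFITM3 were identical at 94% of aligned bases, those of IFITM1 and IFITM3 at 77.5% and those of IFITM1 and IFITM2 at 75%. Of all 50-base windows, 20.8% in IFITM3, 15.8% in IFITM1 and 10% in IFITM2 also occurred in another gene, against 4.02% in IFIT3, 1.27% in IFIT1 and 0 in IFIT2 and IFIT5. Fragments could therefore be lost or divided between the IFITM genes, and their separate levels are less certain than their sum. With the 3 IFITM genes summed to 1 feature before the fit, the log2 fold change was -1.68 (quasi-likelihood p by edgeR 0.00544 unadjusted and 0.307 adjusted), and with IFITM2 and IFITM3 summed it was -1.49 (0.0269 unadjusted and 0.525 adjusted, same test). On chromosome 10, LIPA, a lysosomal lipase gene on the opposite strand, overlaps IFIT1, IFIT2 and IFIT3, and whether counting took account of strand is not given in the sources used here. LIPA was at 82.5 and 93.3 CPM in the control and 87.3 and 81.2 CPM in the USP12 libraries, and its log2 fold change was -0.06. Long non-coding genes opposite IFITM1 and IFITM3 had at most 45 counts in any library. Of 12 genes next to the clusters, 6 passed the filter, with a median log2 fold change of -0.05, and none met the criterion of an unadjusted p of 0.05 or less with a 1-unit change.

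Per kilobase of canonical transcript, the IFITM genes were the more abundant family in each library. In the USP12 libraries the order began with IFITM2 (141 and 101 CPM per kilobase), IFITM3 (38.1 and 30.6) and IFITM1 (12.9 and 12.3). IFIT5 (2.27 and 2.46), IFIT3 (2.26 and 1.42), IFIT1 (1.34 and 0.918) and IFIT2 (0.7 and 0.837) followed in that order. No neighbours in it overlapped over the 2 libraries, but IFIT5 and IFIT3 were almost level in USP12 replicate 1, on counts of 127 and 75. IFIT1 and IFIT2 were close in USP12 replicate 2, on counts of 57 and 41. Counting error was not carried into this order. The order of IFIT3 and IFIT1 turned when all annotated exons gave the length. In the control libraries IFITM3 was at 371 and 224 CPM per kilobase, IFITM2 at 341 and 92.5 and IFITM1 at 43.6 and 212, so these neighbours overlapped, and their order changed with the length used. IFIT1 led the IFIT family in both control libraries with 3.31 and 44.3 CPM per kilobase, and IFIT2 was lowest with 0.714 and 10.1, although IFIT3 was the lowest in control replicate 1 when all annotated exons gave the length. The ranges of all 4 IFIT genes overlapped.

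Upstream of the members, none of 13 interferon genes passed the filter. The lambda interferon genes IFNL1, IFNL2 and IFNL3 had 14, 15 and 5 counts in control replicate 2, the library in which the IFIT genes were high, and between 0 and 1 count in each of the other 3 libraries, where they were not detectable at this depth. IFNE, an epithelial type I interferon, ran the other way, with 0 and 2 counts in control replicates 1 and 2, against 14 and 7 in USP12 replicates 1 and 2. IFNB1 had 1 count in control replicate 2 and 0 elsewhere. The part of these transcripts in the IFIT levels was not tested. The 9 interferon receptors and kinases had a median log2 fold change of -0.23, and none met the criterion in either direction. Of 8 transcription factors, with a median of -0.81, IRF7 alone was lower by the criterion. IRF7, which drives interferon genes, had control levels of 14.5 and 50.8 CPM and USP12 levels of 4.03 and 3.19 CPM, a log2 fold change of -3.17 ± 0.72 (SE) with a quasi-likelihood adjusted p of 0.298 by edgeR. STAT2 and IRF9, both part of ISGF3, had no overlap between the groups, with log2 fold changes of -0.87 and -1.05 and unadjusted p-values of 0.0591 and 0.0646 in edgeR's quasi-likelihood test.

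Of 11 sensors and adaptors that detect viral nucleic acid, 10 were tested, with a median of -1.16. IFIH1 and DHX58, both cytosolic RNA sensors of the RIG-I family, were lower by the criterion, 2 of 10 against 4.41% of all genes. The log2 fold change of IFIH1 was -0.95 against control replicate 1 alone and -4.15 against control replicate 2 alone. DHX58 had 8 and 2 counts in USP12 replicates 1 and 2. In DDX58, of the same family, the groups overlapped. MAVS, the adaptor of IFIH1 on mitochondria, had a log2 fold change of 0.16. Of 7 negative regulators 6 were tested, and none met the criterion. USP18, which is itself induced by interferon and damps its receptor, was at 7.95 and 45.8 CPM in the control and 9.29 and 8.59 CPM in the USP12 pair, with control replicate 2 alone high as for IFIT5. The 6 IFITM cofactors, among them ZDHHC20, a palmitoyltransferase, and NEDD4, a ubiquitin ligase that acts on IFITM3, had a median of 0.02, and none met the criterion.

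Of 28 other interferon-induced genes, 23 were tested, all with a negative log2 fold change, with a median of -2.76. By the criterion 14 of them were lower, and in 16 the USP12 levels lay below those of both controls (the shares over all genes are given above). Against control replicate 1 alone their median was -0.93 and against control replicate 2 alone it was -3.01, where the 7 members had -1.46 and -3.71. The list held the patterns seen in the members. In the tested genes outside those 16 the groups overlapped, as in IFIT2, IFIT3 and IFIT5. IFI44 and HERC6 were among them, with log2 fold changes of 0.33 and 0.46 against control replicate 1 alone. MX1, a dynamin-like GTPase, was at 9.08 and 220 CPM in the control and 5.18 and 4.16 CPM in the USP12 libraries, as IFIT1 was, with control replicate 2 far above the rest. OAS1, which makes oligoadenylates that activate RNase L, was at 349 and 386 CPM in the control and 59.4 and 49.0 CPM in the USP12 libraries, and ISG20, an exonuclease, at 88.8 and 61.4 CPM and at 10.7 and 9.07 CPM, both with control libraries close to each other as in IFITM3. BST2, which tethers virions to the cell, had 112 and 895 counts in the control and 1 and 0 counts in the USP12 libraries. The 5 untested genes included MX2, with 8 and 276 counts in the control and 0 in both USP12 libraries.

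**Figure D5:**
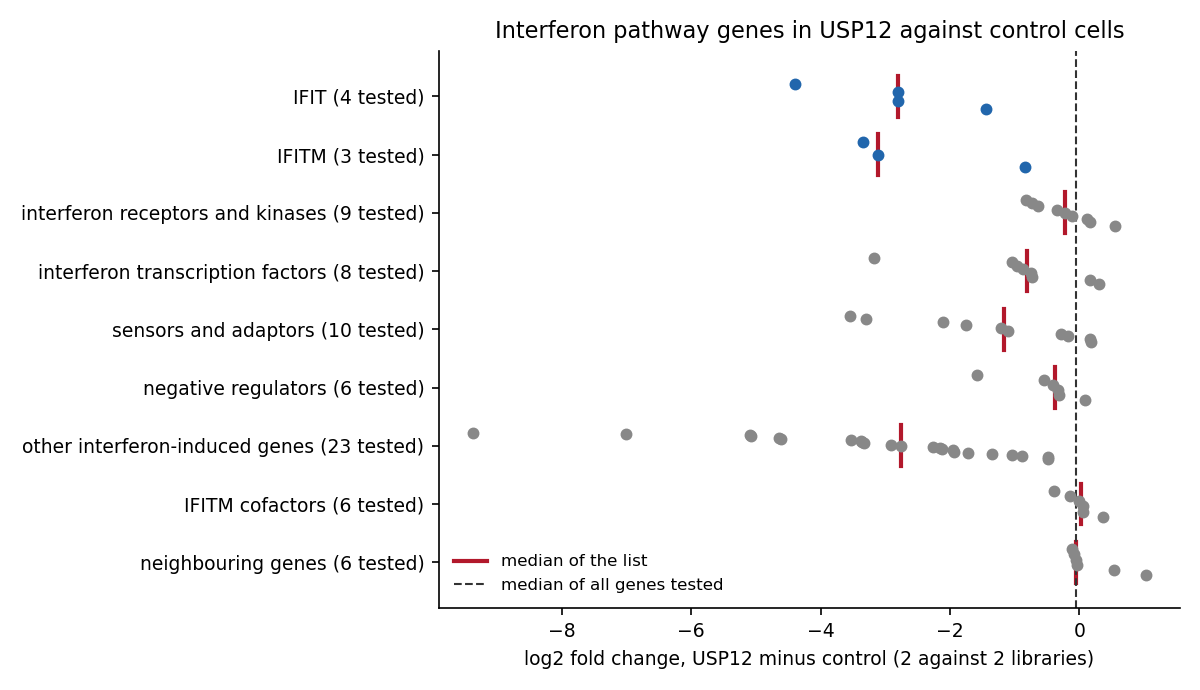
Log2 fold change, USP12 minus control over 2 against 2 libraries, of each tested gene in the IFIT and IFITM families (blue) and in 7 lists around them (grey), with the median of each list (red) and of all genes tested (dashed line, -0.06). The IFIT, IFITM and other interferon-induced genes have medians of -2.81, -3.11 and -2.76 (0.22, -1.76 and -0.93 against control replicate 1 alone). The transcription factors and the sensors have medians of -0.81 and -1.16 (-0.66 and -0.25 against control replicate 1 alone), and the negative regulators -0.37. The medians of the receptors, cofactors and neighbouring genes lie near that of all genes.

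By the distance between centred log2 levels over the 4 libraries, the genes nearest the mean IFIT pattern were DDX60 (0.63), DDX58 (0.67), IFI44 (0.68), HERC6 (0.75) and F7 (0.76), where the median over all other genes tested was 3.35. DDX60 was at 2.95 and 39.9 CPM in the control and 1.80 and 2.35 CPM in the USP12 libraries. Nearest to the mean IFITM pattern were MFSD2A (0.09), RAET1E (0.11), FGG (0.11), CDH17 (0.18) and TINAG (0.19), with a median of 2.38 over the others. That mean is flat over the control libraries, with centred levels of 1.15 and 1.04, while those of IFITM1 were 0.32 and 2.59, of IFITM2 1.23 and -0.65 and of IFITM3 1.90 and 1.17. TINAG was under the floor of 3 counts in both USP12 libraries. Among the members, IFIT1 and IFITM1 were nearest each other (1.19), as were IFIT2 and IFIT3 (1.16), and IFIT5 was nearest IFIT2 (1.23). IFITM3 was nearest IFITM1 (2.14) and IFITM2 nearest IFITM3 (2.63), so the neighbours of these genes were the farthest away.

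Markers of the epithelial cells that A549 derives from were present in all libraries. Their 6 genes summed to 12896 and 7474 CPM in the control and 7316 and 6794 CPM in the USP12 libraries, mostly from KRT7, KRT8 and KRT18. In 4 of the 6 (EPCAM, KRT8, KRT18 and KRT19) the USP12 levels lay below those of both controls, where this held for 17.0% of all genes tested. The median log2 fold change of the 6 was -1.16 against control replicate 1 alone and -0.26 against control replicate 2 alone. For the IFIT genes and IFITM1 the larger difference was against control replicate 2. For IFITM3 (-3.40 and -2.70) and IFITM2 (-1.46 and 0.39) it was against control replicate 1, as for the markers' median. KRT19 also met the criterion, with a log2 fold change of -2.14 from control levels of 437 and 114 CPM to USP12 levels of 68.7 and 55.9 CPM. Among 6 leukocyte markers, PTPRC and CD3E had at most 1 count in any library, and the list summed to between 53 and 112 CPM, mostly from CD68. CD14 had 424 and 85 control counts, against 185 and 174 in the USP12 pair. LYZ was lower by the criterion, with 11 and 27 counts against 1 and 3. The 5 fibroblast markers summed to between 2.94 and 20.2 CPM, mostly from COL1A1, which had 172 and 47 control counts, against 262 and 211 in the USP12 pair. PDGFRB had counts in the USP12 libraries only, 6 and 11, and DCN was at 0 in every library. Of the plasmacytoid dendritic cell markers, which mark a cell rich in interferon, CLEC4C was at 0 in every library, LILRA4 had at most 8 counts and TCF4 was at 7.79 and 23.5 CPM in the control and 4.25 and 4.57 CPM in the USP12 libraries. Endothelial markers, 3 genes, summed to 15.4 and 8.59 CPM in the control and 0.432 and 1.32 CPM in the USP12 libraries, lower as IFITM3 was. They included CDH5 with 136 and 96 counts in the control and 2 and 5 in the USP12 libraries, while VWF had at most 3 counts. The part of these markers in the levels of the members was not tested.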

How the data were processed

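The files the authors deposited hold raw counts per gene, from fragments that mapped uniquely. Per the labels and the methods of the study, stranded mRNA libraries were trimmed and cleared of ribosomal reads with Seqtk, mapped to GRCh38 with Hisat2 2.0.4 and counted with Stringtie 1.3.0. The annotation release is not given in the sources used here. Unique mapping lowers counts of near-identical genes.

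Counts were filtered with filterByExpr, scaled with TMM and compared with the quasi-likelihood test of edgeR 4.0.16 in R 4.3.3 (no covariate, Benjamini-Hochberg adjustment over 15222 genes), after the code had been tested on simulated data. Standard errors were derived from the fold change and the F statistic and are approximate. CPM were TMM-scaled, with a prior count of 2 before taking log2. Totals were between 14280081 and 16305356 counts per library. Alternatives were DESeq2 1.42.0 (size factors and Wald test), edgeR's exact test, no filter, at least 10 counts in every library, a replicate block, a GC content offset, summed IFITM genes and leaving out each library. Positions, transcript lengths and GC content came from GENCODE release 44, in which 99.2% of tested genes were found by identifier. Motifs were searched on both strands of the RefSeq windows. Genes named were the members, USP12, gene lists of the interferon pathway, neighbouring genes and cell type markers, and the 5 genes nearest each family's mean pattern. The members and lists were chosen with earlier results of these data known. No protein comparison was made. The results of 2 other listed genes are not reported here.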

Additional observations from a re-analysis of the deposited data

How the results depend on the processing

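The members' median log2 fold change stayed negative under all 12 alternatives, and so did the fold changes of IFIT1, IFITM1 and IFITM3. With 1 library left out, 4 fold changes crossed 0: IFITM2 ranged from -1.46 to 0.39 (without control replicate 1), and IFIT2 from -3.71 to 0.14, IFIT3 from -3.77 to 1.30 and IFIT5 from -2.20 to 0.30 (all without control replicate 2), as did the median of the IFIT family, which was 0.22 without control replicate 2. The number of members with an adjusted p under 0.05 was 0 with the chosen test, 5 with no filter on low counts (1.46% of all genes), 3 with the replicate block (1.65%), 1 with the offset for GC content, 2 with both (1.35%), 3 with the DESeq2 Wald test, 3 with the exact test, and 0 to 6 when 1 library was left out (6 without control replicate 1, 4 without control replicate 2).

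Over all genes, those lower by the criterion numbered 671, or 1173 with no filter and 300 to 2134 with 1 library left out. Those higher numbered 445, or 688 with no filter and 159 to 2495 with 1 library left out. Lower genes at an adjusted p under 0.05 numbered 0, or 361 with no filter, 251 with the replicate block, 14 with the offset for GC content, 206 with both, 273 with the DESeq2 Wald test, 250 with the exact test and 28 to 2612 with 1 library left out. Higher genes numbered 0, or 167, 153, 6, 119, 133 and 160 in the same order, and 12 to 2550 with 1 library left out. DESeq2's size factors and the filter of at least 10 counts in every library left both at 0. The highest values came without control replicate 2. The cause of these differences was not tested.

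The median of the transcription factors was -0.64 with the replicate block, -0.60 with the block and the offset together, and -0.88 to -0.66 with 1 library left out. That of the sensors was -0.69 with at least 10 counts in every library, -0.69 with the block and the offset, and -1.38 to -0.25 with 1 library left out. With 1 library left out, the medians were -0.46 to -0.03 for receptors and kinases, -0.45 to -0.09 for negative regulators, -3.01 to -0.93 for the other interferon-induced genes and -0.36 to 0.60 for the IFITM cofactors.

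The replicate numbers are shared by label only: same-numbered libraries deviated from their group means with a correlation of 0.152 over genes, and there are 2 pairs. The prior degrees of freedom were 4.15 with the chosen test and infinite with the replicate block, with no filter and without either USP12 library, so those p-values ignore how a given gene varied. Every member had at least 24 counts in every library.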
